A study of Mus musculus with 91 samples.

Results

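Cxcl12 and Kitl, the genes of the blood stem cell niche factors CXCL12 and KIT ligand, were followed cell by cell in mouse bone marrow. They are 2 of the 16580 genes in the deposited table and were picked by their symbols, not by a threshold on measured values. The table covers 91 bone marrow cells of C57BL/6 mice, and each cell is its own library, made by Smart-seq2 from full-length cDNA. Marrow was crushed out of the bones and the cells were sorted into wells with an index record, so the antibody intensity of every cell is known. All cells were sorted as positive for VCAM1, which marrow stromal cells use for adhesion, and for Vibrant Dye, used to keep out debris, and as negative for CD71, CD41, Ter119 and CD45, which mark blood cells. The CD61+ gate, which adds positive staining for the integrin beta 3 chain, held 39 cells on plates of 17 and 22. The CD61- gate held 40 cells on plates of 24 and 16. A further 9 cells, 8 and 1 by plate, came from a VCAM1+ gate not divided on CD61. The labels of 3 further cells conflict, with CD61- in the title and CD61+ as the gate, and these cells enter only the descriptions over all 91 cells. No genotype, treatment, age or animal is named in the labels, so each gate was treated as 1 sample and no test was run. Since no plate held cells of more than 1 gate, effects of plate and of gate cannot be told apart.

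CXCL12 is a chemokine that keeps blood stem cells, B cell progenitors and other blood cells in the marrow through its receptor CXCR4. KIT ligand, also called stem cell factor, acts on the receptor tyrosine kinase KIT and is needed for the maintenance of blood stem cells. It is made as a membrane-bound form and as a form that is cleaved and released. In the marrow the main sources of both are perivascular reticular cells, known as CXCL12-abundant reticular (CAR) cells or Lepr+ stromal cells, while bone-forming cells and endothelial cells contribute in part.

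Cxcl12 (ENSMUSG00000061353.11) lies on the plus strand at chr6:117168535-117181367 of build GRCm38 (mm10), and GENCODE vM21 gives it 4 transcripts, of which 3 are coding. Kitl (ENSMUSG00000019966.18) lies on the plus strand at chr10:100015630-100100416 and has 6 transcripts, of which 4 are coding. The deposited values are per gene, so the splice forms, among them those that favour the membrane-bound or the released form of KIT ligand, are not told apart. Because the 2 genes varied together over the cells, their start regions are shown, taken from RefSeq on GRCm38.p6. Capitals mark GC boxes (GGGCGG on either strand) or a TATA box (TATAAA).
Cxcl12, the 250 bases before the start at chr6:117168285-117168534: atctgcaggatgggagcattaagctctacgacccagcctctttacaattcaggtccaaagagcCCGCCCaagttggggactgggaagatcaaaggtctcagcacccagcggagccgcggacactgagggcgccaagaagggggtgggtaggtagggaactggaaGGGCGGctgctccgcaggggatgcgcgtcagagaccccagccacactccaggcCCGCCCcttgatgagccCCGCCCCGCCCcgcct
Kitl, GC boxes at chr10:100015768-100015797: gagctggcGGGCGGGCGGgagggagctgta
Kitl, TATA box at chr10:100015784-100015813: gggagggagctgTATAAAaagcgctggcgg
In the window from 250 bases before to 50 bases after the start, Cxcl12 held 5 GC boxes, the last pair of which overlap, and Kitl held 3, of which the pair shown overlaps. A GC box was found on either strand in 35.7% of 32851 such windows. The TATA box of Kitl began 25 bases before the RefSeq start, at -25, and TATAAA was found in 13.6% of the windows. The RefSeq start of Kitl, chr10:100015821, differs from the GENCODE gene start at 100015630. By the GENCODE coordinates the Kitl stretches shown lie inside the gene, so their place before a start rests on RefSeq. For Cxcl12 the 2 starts are the same. The letters TCCC and GGGA with any 2 bases between them (EBF, in 0.904% of the windows), GTAAACA (forkhead, 3.65%), TGTGGT (RUNX, 16.8%) and TTGCGCAA (C/EBP, 0.183%) were in neither window on either strand. A match or its absence describes these letters only.

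Levels are given as CPM, a gene's count scaled so that every cell has the same total. The median cell had 2060906 counts in all (range 507713 to 6702475), and 0 pairs of cells had identical columns. Index-sort intensity of CD61 ran from 1567 to 3739 in CD61+ cells and from 222 to 1573 in CD61- cells, so the gates overlapped only slightly. The VCAM1+ gate stood apart: 6 of its 9 cells had a VCAM1 intensity of 158 or less, below the lowest value of 352 in the CD61 gates. Only 1 of these 6 cells had Cxcl12 at 2000 CPM or more, against 2 of the 3 other cells, so the VCAM1+ cells are given one by one and enter no gate comparison. Intervals are exact 95% intervals for counting error only, and Smart-seq2 reads are not independent molecules.

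Cxcl12 took more counts than almost any other gene and was either high or low, with few cells between. It had a count in 83 of 91 cells (91.2%, Clopper-Pearson interval 83.4 to 96.1). Over the 91 cells its level ran from 0 to 37332 CPM, with a median of 16613 and quartiles of 430 and 26761 CPM. A gap separated the cells at 2000 CPM, a value chosen after the levels were seen: 29 cells lay at 1438 CPM or below, and 62 cells at 3876 CPM or above. In summed counts over all cells Cxcl12 ranked 2 of 16580 genes and took 1.48% of all counts. It ranked 1 in the CD61- gate, with 2.19% of counts, and 2 in the CD61+ gate, with 1.00%.

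Kitl had a count in 73 of 91 cells (80.2%, interval 70.6 to 87.8). Its level ran from 0 to 17370 CPM, with a median of 840 and quartiles of 21.7 and 2004 CPM. Kitl ranked 99 in summed counts over all cells. Per kilobase of the longest coding transcript, of 5627 and 5648 bases, the median level was 2952 CPM for Cxcl12 and 149 CPM for Kitl. Per kilobase of the shortest, of 1878 and 564 bases, it was 8846 and 1490 CPM, so the size of the gap depends on the transcripts used. The cell with the highest Kitl, in the CD61- gate on plate 1, held 10.5% of all Kitl counts in the data. That cell had 16613 CPM of Cxcl12 beside its 17370 CPM of Kitl and 1244 deposited genes, against a median of 4402 genes over all cells. The next highest cell had 5939 CPM of Kitl, so a single cell sets the upper end of the Kitl range.

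**Figure D1:**
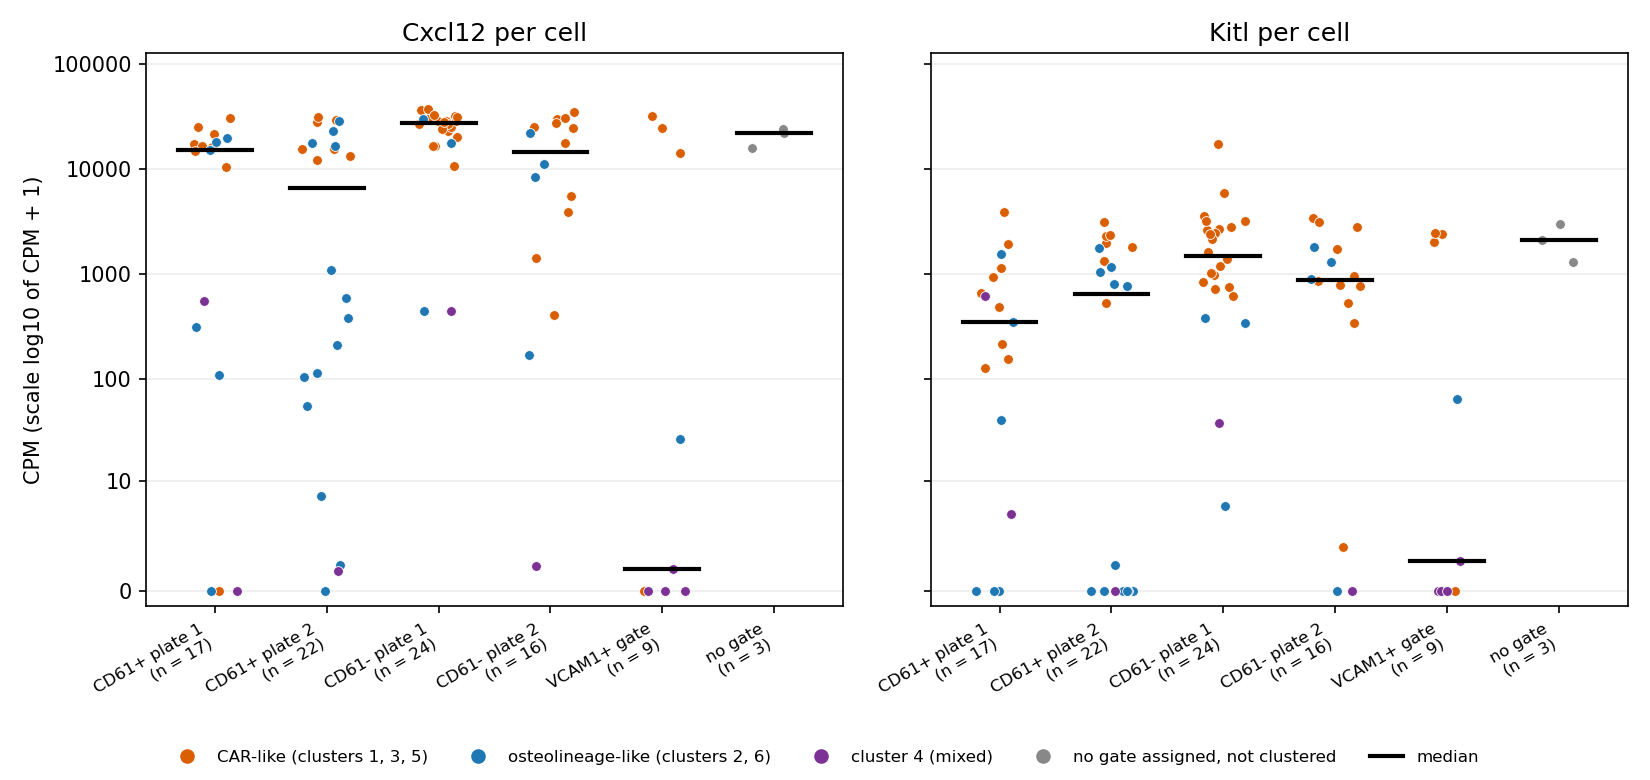
Cxcl12 (left) and Kitl (right) per cell on the scale log10 of CPM + 1, with 1 point per cell, black bars for medians and colours for clusters, by plate for the CD61 gates. Cxcl12 splits into a band above 3876 CPM and a scattered low group that holds 17 CD61+ and 6 CD61- cells.

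The gates were compared to see how far each of these genes differed between CD61+ and CD61- cells. Cxcl12 in the 39 CD61+ cells ran from 0 to 30804 CPM with a median of 13341, and in the 40 CD61- cells from 0.728 to 37332 CPM with a median of 24843. The single-cell ranges overlapped almost fully, and the CD61+ gate held more low cells. Below 2000 CPM were 6 of 17 and 11 of 22 cells of the CD61+ plates, against 2 of 24 and 4 of 16 cells of the CD61- plates. Summed over the cells, Cxcl12 stood at 10032.5 CPM in CD61+ and 21914 CPM in CD61- cells, 2.18-fold lower in CD61+ (counting interval 2.18 to 2.19; log2 ratio -1.13). By plate the sums were 10268 and 9789 CPM against 24350 and 18632 CPM, so both CD61+ plates lay below both CD61- plates. Over the 4 plate pairs the log2 ratio ran from -1.31 to -0.86.

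Kitl in CD61+ cells ran from 0 to 3868 CPM with a median of 487, and in CD61- cells from 0 to 17370 CPM with a median of 1114. It had a count in 27 of 39 CD61+ cells (69.2%, interval 52.4 to 83.0) and in 38 of 40 CD61- cells (95.0%, interval 83.1 to 99.4). With each cell thinned to 1067557 counts, which left out 6 CD61+ and 3 CD61- cells, it had a count in 21 of 33 and 35 of 37 cells. Summed, Kitl stood at 651 CPM in CD61+ and 1924 CPM in CD61- cells, 2.95-fold lower in CD61+ (counting interval 2.92 to 2.98; log2 ratio -1.56). The plates spread more than for Cxcl12, with 481 and 828 CPM against 2263 and 1468 CPM, and the log2 ratio over plate pairs ran from -2.23 to -0.83. Without the highest Kitl cell the log2 ratio was -1.35. Of all 14063 genes with at least 10 counts and a count in at least 5 cells of the CD61 gates, 17.8% were also lower in both CD61+ plates, and 17.3% were lower at least 2-fold in the sums. A lower level in the CD61+ plates was therefore common among all genes tested.

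Markers of several cell types moved with the gates. The 15 CAR markers together stood at 6895 and 6984 CPM in the CD61+ plates against 18157 and 13704 CPM in the CD61- plates, with none at 0. The 14 osteolineage markers stood at 78684 and 84643 CPM against 17495 and 23031 CPM, with Col11a2 at 0 in both CD61- plates. Most of the sums in the CD61+ plates was Spp1, which alone stood at 67595 and 67096 CPM against 9490 and 16009 CPM. The 10 endothelial markers stood at 1616 and 233 CPM against 11.9 and 332 CPM. Of them 5 were at 0 in CD61+ plate 2 and 6 in CD61- plate 1, the cadherin gene Cdh5 in both. The 9 fibroblast markers stood at 1759 and 5505 CPM against 580 and 400 CPM. The CD61+ plates were unlike: Mfap5 and Pi16 stood at 0.154 and 0.256 CPM in plate 1 and at 1342 and 652 CPM in plate 2. In plate 2, 1 cell alone had 13127 CPM of the fibroblast marker Dcn. The 7 hematopoietic markers stood at 11.8 and 6.43 CPM against 201 and 0.256 CPM, with Tyrobp and Cd79a at 0 in both CD61+ plates and in CD61- plate 2. Erythroid, megakaryocyte, smooth muscle, chondrocyte and Schwann lists each stayed below 1000 CPM in all 4 plates. Gate ratios within clusters are given further on, and beyond them the part of these cell types in the ratios was not tested. In pooled sums a smaller number of cells with a gene and less of it per cell cannot be told apart, which the single-cell values above do separate.

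Cxcl12 and Kitl were mostly found together. Both had a count in 70 of 91 cells, Cxcl12 alone in 13, Kitl alone in 3 and neither in 5. With 10 CPM as the limit, chosen after the levels were seen, the numbers were 66, 12, 2 and 11. All 62 cells at 2000 CPM of Cxcl12 or more had Kitl counts, at 40.8 CPM or higher, and 61 of them had at least 100 CPM. Of the 29 cells below, 11 had a Kitl count and 4 had at least 100 CPM. Over all 91 cells, which share plates and differ in depth, Spearman's rho was 0.74. Of 7938 genes with a count in at least 25% of cells, 1.44% had a rho of 0.5 or more with Cxcl12 and 1.11% with Kitl. Kitl ranked 12 among them for Cxcl12, and Cxcl12 ranked 3 for Kitl.

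The pooled value covered groups of cells with different values. Within the 62 cells above 2000 CPM of Cxcl12, rho with Kitl was 0.32, and within the 29 cells below it was 0.28. The limit was set on Cxcl12 itself and narrows its range in each part, so these 2 values are a description. The clusters described further on were formed without either gene. In clusters 1 to 6, rho was 0.33, 0.18, 0.73, 0.16, 0.93 and 0.091, in 9 to 28 cells each. In CAR-like cells it was 0.47 and in osteolineage-like cells 0.77. By plate it was 0.54 (n = 17) and 0.84 (n = 22) in the CD61+ plates and 0.14 (n = 24) and 0.85 (n = 16) in the CD61- plates. The plate with the lowest value, CD61- plate 1, was also the plate with the fewest low cells, 2 of 24. In CD61- plate 2 both genes also followed depth: rho with total counts was 0.64 for Cxcl12 and 0.71 for Kitl there. In CD61+ plate 1 Kitl had a rho of -0.59 with total counts, and in CAR-like cells Cxcl12 had one of 0.50. Over all 91 cells rho with total counts was 0.060 for Cxcl12 and -0.058 for Kitl.

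**Figure D2:**
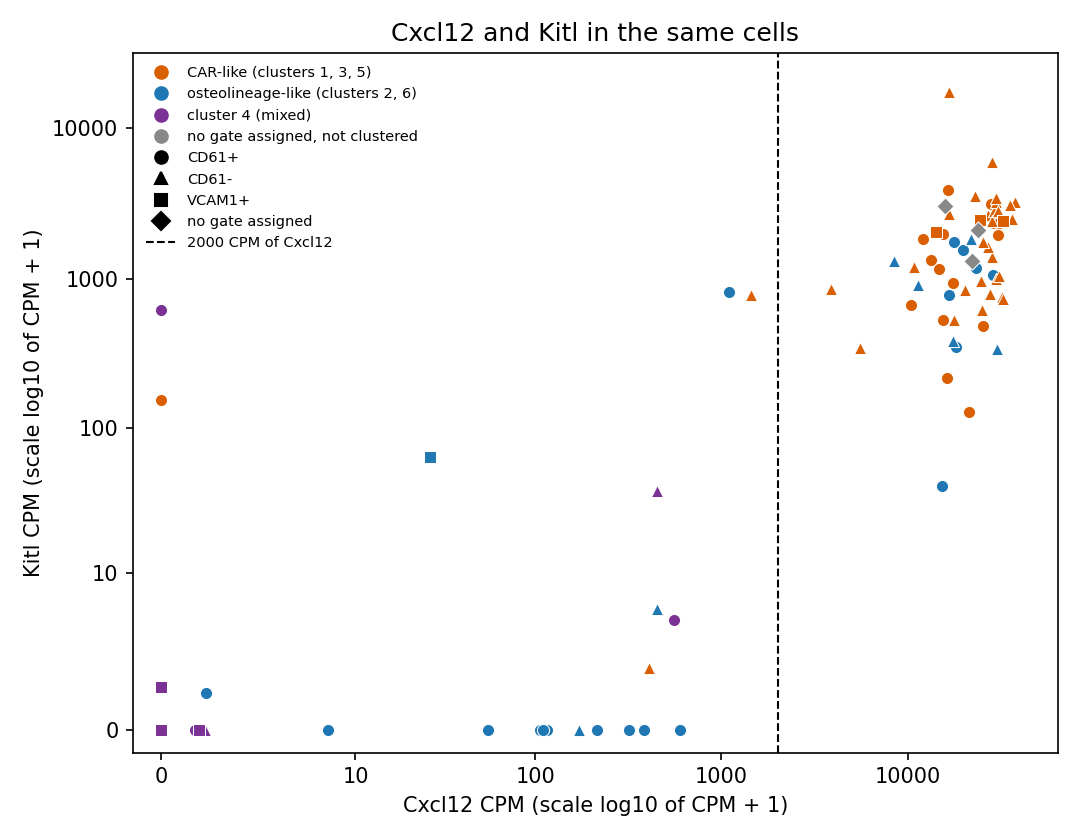
Cxcl12 against Kitl in 91 cells, both axes on the scale log10 of CPM + 1, with colour for the cluster name, shape for the gate and a dashed line at 2000 CPM of Cxcl12. All 62 cells to the right of the line had Kitl at 40.8 CPM or more, while 18 of 29 cells to the left had no Kitl count.

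Among the 62 cells with high Cxcl12, Kitl covered a wide range; since these cells were taken by a limit on Cxcl12, which cuts off its low end only, the spreads of the 2 genes there are a description. Over all 91 cells the SD of log2(CPM + 1) was 5.1 for Cxcl12 and 4.5 for Kitl. The quartiles of Cxcl12 were 16480 and 28714 CPM, 1.74-fold apart, and those of Kitl 804 and 2435 CPM, 3.03-fold apart. The coefficient of variation over these cells was 35.0% for Cxcl12 and 118% for Kitl, or 67.8% for Kitl without its highest cell. The Kitl level was 7.71% of the Cxcl12 level of the same cell at the median, with a range from 0.270% to 104.6%. At the low end, a CD61+ osteolineage-like cell had 15131 CPM of Cxcl12 and 40.8 CPM of Kitl. A few cells showed the reverse. A CD61+ cell with 277 CPM of Cdh5, which marks endothelium, had 620 CPM of Kitl and no Cxcl12 count. Another CD61+ cell had 155 CPM of Kitl, no Cxcl12 count and 127189 CPM of Spp1, which encodes a bone matrix protein. These cells were picked after their values were seen.

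The 9 VCAM1+ cells fell at the ends of the range. In 3 cells Cxcl12 was at 14187, 24277 and 32107 CPM, with Kitl at 2031, 2444 and 2402 CPM. One cell had 26.7 CPM of Cxcl12 and 64.8 CPM of Kitl, and Spp1 at 3349 CPM. The other 5 cells had at most 0.597 CPM of Cxcl12, which was 4 counts, and at most 0.924 CPM of Kitl. In each of the 9 cells Cxcl12 and Kitl were thus high together or low together.

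To relate the levels to cell type, the 88 cells with a gate were clustered without Cxcl12 and Kitl among the genes used, and the 6 clusters were named from marker lists. Clusters 1, 3 and 5, with 28, 10 and 13 cells, were CAR-like, each with all 15 CAR markers counted in at least 50% of cells. The name fits cluster 5 least. The mean difference of the CAR markers from the other cells, in log2(CPM + 1), was 3.27, 2.62 and 0.67 in these clusters. Cluster 5 also held a CD61+ cell with 127189 CPM of Spp1 and a VCAM1+ cell with 1185 deposited genes. Neither had a count of Cxcl12 or Adipoq. Clusters 2 and 6, with 16 and 12 cells, were osteolineage-like. Cluster 2 was led by Spp1, Bglap2 and Postn and cluster 6 by Alpl, Comp and Wif1. Cluster 6 also carried CAR traits in part. The CAR marker Adipoq stood at 6134, 5599 and 3223 CPM in CD61- cells of it and at 552 CPM in a CD61+ cell. Its other cells had less than 10 CPM of Adipoq. Another CAR marker, Lepr, had a count in all 12 cells of cluster 6, at 54.7 to 853 CPM. Values over all osteolineage-like cells join these 2 unlike clusters. The marker lists gave cluster 4 the name endothelial. That name was set aside here, and its 9 cells are treated as mixed. Of them 4 had Cdh5 counts, and others carried the fibroblast gene Dcn or the blood cell gene Laptm5. Because genes that vary with Cxcl12 helped to form the clusters, levels by cluster are a description.

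Median Cxcl12 was 27555 CPM in cluster 1, 27029 in cluster 3, 10732 in cluster 5 and 17806 in cluster 6, against 113 in cluster 2 and 0.526 in cluster 4. All cells of clusters 1, 3 and 6 lay above 2000 CPM and all of clusters 2 and 4 below it, while cluster 5 held 4 low and 9 high cells. Cluster 5 was the shallowest, with a median of 1090160 counts and 2978 genes. Median Kitl was 2280 CPM in cluster 1, 859 in cluster 3, 1151 in cluster 5 and 979 in cluster 6, and 0 in clusters 2 and 4. The neighbours 3, 5 and 6 overlapped widely in Kitl, with ranges of 218 to 3110, 0 to 17370 and 40.8 to 1825 CPM. The 2 osteolineage-like clusters thus stood far apart in Cxcl12: cluster 6 had 8396 to 29869 CPM and cluster 2 had 0 to 1101 CPM. In Kitl their medians differed, but the ranges overlapped, since cluster 2 ran from 0 to 811 CPM.

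Within CAR-like cells the plates of the 2 gates overlapped for both genes. Cxcl12 ran from 0 to 30804 CPM (median 16300) in 16 CD61+ cells and from 411 to 37332 CPM (median 26848) in 31 CD61- cells. The CD61+ cell at 0 was the cell of cluster 5 with 127189 CPM of Spp1. The log2 ratio of the sums was -0.28, and over plate pairs it ran from -0.51 to 0.043. Kitl had a log2 ratio of -0.76, with plate pairs from -1.61 to 0.27. Most CAR-like CD61- cells were in cluster 1 (22 of 31), whereas CD61+ cells were spread over clusters 1, 3 and 5 (4, 6 and 6 cells). In cluster 1 alone, median Cxcl12 was 19323 CPM in the 4 CD61+ and 28131 CPM in the 22 CD61- cells, and median Kitl 1388 and 2283 CPM. In cluster 3 the medians were 27029 CPM in 6 CD61+ and 28491 CPM in 4 CD61- cells for Cxcl12, and 1240 and 859 CPM for Kitl. Cluster 5 had the opposite order for both genes, with medians of 14028 CPM in 6 CD61+ and 5558 CPM in 5 CD61- cells for Cxcl12, and 1238 and 774 CPM for Kitl.

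Within osteolineage-like cells Cxcl12 had a log2 ratio of -1.48, from -2.03 to -0.94 over plate pairs, with 20 CD61+ and 7 CD61- cells. Kitl had a log2 ratio of -1.43, but plate pairs ran from -2.36 to 0.29. Cluster 2 held 13 of the 20 CD61+ and 2 of the 7 CD61- cells, and cluster 6 the others. In cluster 6 median Cxcl12 was 17977 CPM in 7 CD61+ and 17456 CPM in 5 CD61- cells, and median Kitl 1057 and 901 CPM. The ranges overlapped there for both genes.

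Adipoq, which encodes the hormone adiponectin and marks adipogenic CAR cells, was high only where Cxcl12 was high: it reached 1000 CPM in 45 of the 62 high cells and in 0 of the 29 low ones. At 10 CPM of Adipoq or more, 51 of 54 cells had Cxcl12 above 2000 CPM, and all 54 had a Kitl count, with a median of 1506 CPM. Spearman's rho over the 91 cells was 0.61 with Cxcl12 and 0.60 with Kitl. By plate it was 0.36 and 0.57 (CD61+) and 0.26 and 0.60 (CD61-) for Cxcl12. For Kitl it was 0.64 and 0.74, then 0.016 and 0.56. Within the 51 CAR-like cells it was 0.10 for Cxcl12 and 0.24 for Kitl. High Cxcl12 was also found without Adipoq: 11 cells under 10 CPM of Adipoq had Cxcl12 above 2000 CPM, and in 10 of them Alpl was at 10 CPM or more. Those 10 cells had 8396 to 23699 CPM of Cxcl12.

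Alpl, the alkaline phosphatase gene of early osteolineage cells, had little relation to the Cxcl12 level over all cells. Median Cxcl12 was 16300 CPM in the 44 cells with 10 CPM of Alpl or more and 16615 CPM in the 47 others. Median Kitl was 575 and 1151 CPM. What went with Alpl depended on Adipoq: with both genes at 10 CPM or more, all 19 cells were above 2000 CPM of Cxcl12 (median 25013), with a median Kitl of 1057 CPM. With Alpl and no Adipoq, 10 of 25 cells were (median 560), and median Kitl was 5.40 CPM. Of the 35 cells with Adipoq and no Alpl, 32 were above 2000 CPM of Cxcl12, with a median of 24277 CPM, and median Kitl was 1624 CPM. With neither gene, 1 of 12 cells was above 2000 CPM. Spearman's rho with Alpl over 91 cells was -0.057 for Cxcl12 and -0.25 for Kitl. Within osteolineage-like cells it was 0.53 and 0.49, a value that joins clusters 2 and 6. Within cluster 2 it was 0.55 for Cxcl12 and 0.17 for Kitl, and within cluster 6 it was -0.16 and 0.063.

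Spp1, which encodes the bone matrix protein osteopontin, was found together with high Cxcl12 except at its highest levels. In the 15 cells between 10 and 1000 CPM of Spp1, median Cxcl12 was 27396 CPM and 14 cells were above 2000 CPM. Between 1000 and 10000 CPM of Spp1 the median was 17977 CPM, with 11 of 13 cells above, and between 10000 and 50000 CPM 3 of 5 cells were. Above 50000 CPM of Spp1, none of 13 cells was above 2000 CPM of Cxcl12, the highest being 1101 CPM. In those 13 cells Kitl had a count in 4, with a highest level of 811 CPM. The 45 cells under 10 CPM of Spp1 covered the whole range of Cxcl12, from 0 to 37332 CPM. Spearman's rho with Spp1 was -0.28 for Cxcl12 and -0.42 for Kitl over 91 cells. In the CD61+ plates it was -0.41 and -0.54 for Cxcl12 and -0.66 and -0.71 for Kitl. In the CD61- plates it was -0.064 and -0.015 for Cxcl12, and -0.40 and 0.13 for Kitl, so the sign for Kitl was not the same in every plate.

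**Figure D3:**
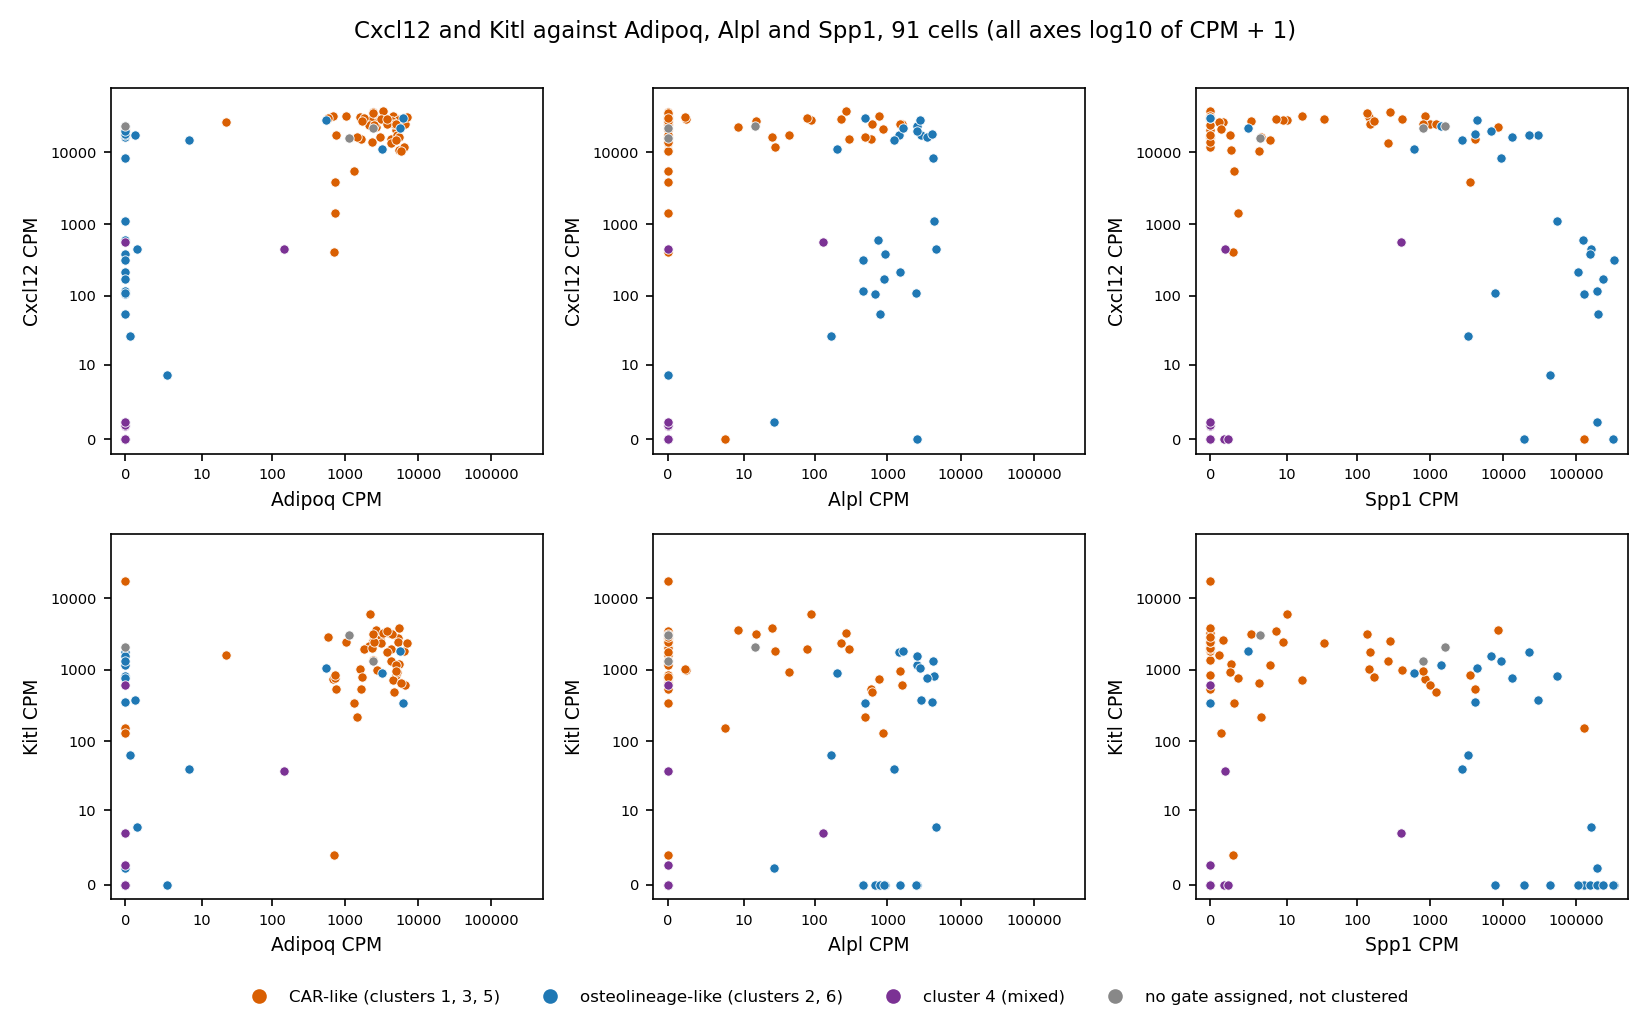
Cxcl12 (top) and Kitl (bottom) against Adipoq, Alpl and Spp1 in 91 cells, all axes on the scale log10 of CPM + 1, coloured by cluster name. The 13 cells above 50000 CPM of Spp1 all lie at or below 1101 CPM of Cxcl12, and cells with Alpl lie in both the high and the low band.

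VCAM1 intensity had little relation to either gene over all 91 cells. Since all cells were sorted on VCAM1, these values hold for selected cells only. Spearman's rho was 0.027 with Cxcl12 and 0.0082 with Kitl over 91 cells. Median Cxcl12 was 17639 CPM in the 31 cells with the lowest VCAM1 intensity, 14028 CPM in the next 30 and 15990 CPM in the highest 30. By plate of the CD61 gates, rho ran from -0.16 to 0.31 for Cxcl12 and from -0.14 to 0.11 for Kitl. Other sets differed: it was 0.56 for Cxcl12 and 0.49 for Kitl in the 9 VCAM1+ cells. In osteolineage-like cells it was 0.47 and 0.27, which joins clusters 2 and 6, and in CAR-like cells -0.13 and -0.082. Within cluster 2 it was 0.19 for Cxcl12 and -0.41 for Kitl, and within cluster 6 it was 0.084 and -0.15. The mRNA of the same protein behaved otherwise: Vcam1 had a rho of 0.63 with Cxcl12 and 0.67 with Kitl.

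CD61 intensity went with lower levels of both genes over 91 cells, with a rho of -0.35 for Cxcl12 and -0.38 for Kitl, and this includes the difference between the gates. Within the CD61+ gate rho was -0.38 and -0.50. Of the 13 CD61+ cells with the lowest CD61, 2 were below 2000 CPM of Cxcl12, of the middle 13 cells 6 and of the highest 13 cells 9. Median Kitl in the same sets was 1151, 534 and 0.751 CPM. Within the CD61- gate rho was -0.0069 and -0.014. The CD61- plates differed, at 0.13 and -0.44 for Cxcl12 and 0.11 and -0.44 for Kitl.

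CD200, a membrane glycoprotein that was recorded but not sorted on, had the most negative rho with Kitl of the 3 channels over all 91 cells. In CD61- plate 2 the order was the other way, with -0.44 for CD61 and -0.024 for CD200, and in CAR-like cells the values were level at -0.26. Median intensity was 3077 in the 29 cells with low Cxcl12 and 358.5 in the 62 with high Cxcl12. Spearman's rho over 91 cells was -0.29 for Cxcl12 and -0.50 for Kitl. In the CD61+ gate, 1 of the 13 cells with the lowest CD200 was below 2000 CPM of Cxcl12, and median Kitl there was 1326 CPM. Of the middle 13 cells 5 were low, and median Kitl was 620 CPM. Of the highest 13 cells 11 were low and Kitl had a count in 4 cells, with a median of 0. By plate, rho with Kitl was -0.69 and -0.70 in CD61+ and -0.47 and -0.024 in CD61- cells. For Cxcl12 it was -0.30 and -0.57, then -0.054 and -0.021. Within CAR-like cells the sign for Cxcl12 turned, to 0.27 in 51 cells, while that for Kitl stayed negative, at -0.26. Within the 28 osteolineage-like cells both were negative, at -0.65 for Cxcl12 and -0.60 for Kitl, values that join clusters 2 and 6. Within cluster 2 rho was -0.43 for Cxcl12 and -0.073 for Kitl, and within cluster 6 it was -0.27 and -0.23.

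**Figure D4:**
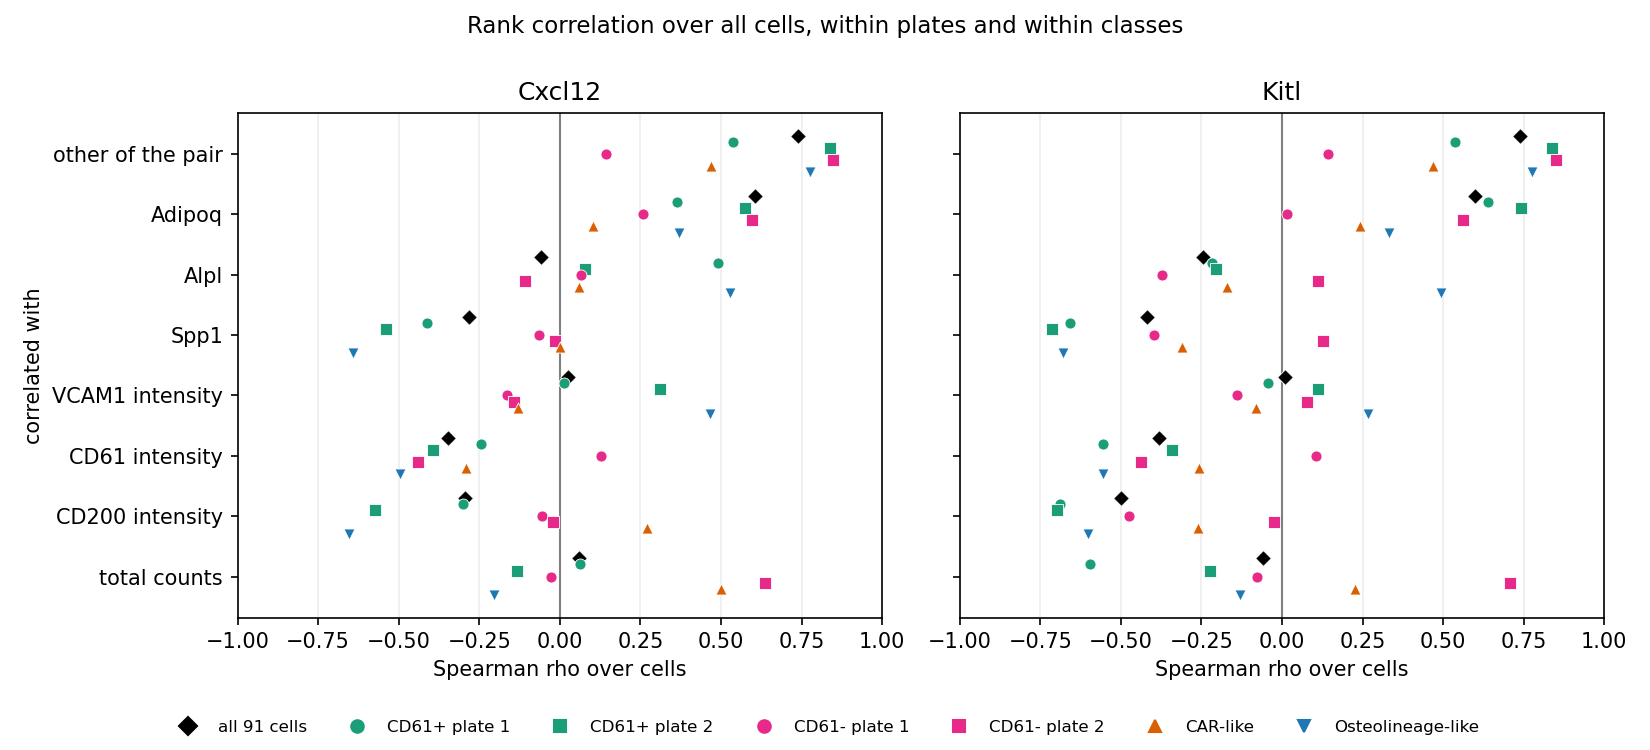
Spearman's rho of Cxcl12 (left) and Kitl (right) with each other, with Adipoq, Alpl and Spp1, with intensity and with total counts, with 1 symbol for each set of cells. The black symbols over 91 cells lie at 0.74 for the pair, and the values within plates and within CAR-like cells show how far each relation holds inside a set.

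The genes most like Cxcl12 over the 91 cells, by rho, were Lpl (0.84), Gas6 (0.83), Gpx3 (0.83), Esm1 (0.82) and Fbln5 (0.81), followed by Serping1, Kng2, Kng1, Tmem176b and Igfbp4 (0.79 to 0.76). Lpl encodes lipoprotein lipase, Gas6 a ligand of the TAM receptors, Gpx3 a secreted glutathione peroxidase, Esm1 a secreted proteoglycan and Fbln5 an elastic fibre protein. Kng1 and Kng2 are close copies, and reads may be divided between them. The median rho within the 4 plates was 0.67 to 0.88 for these 10 genes. For Kitl the leading genes were Lpl (0.80), Dpep1 (0.76), Cxcl12 (0.74), Esm1 (0.74) and Lepr (0.72), followed by Chrdl1, Fbln5, Ptx3, Bmp6 and Gpx3 (0.71 to 0.68). Lepr encodes the leptin receptor, Chrdl1 a BMP antagonist and Ptx3 a secreted pentraxin. Lpl, Esm1, Fbln5 and Gpx3 were in both sets of 10.

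At the other end, Timp3 (-0.59), Cpe, Mef2c, Cyfip2 and Eef1a1 (each -0.51) had the lowest rho with Cxcl12. Timp3 encodes a metalloproteinase inhibitor and Mef2c a transcription factor. Cpe, Fam20c, Col6a3, Mef2c and Timp3 (-0.57 to -0.54) had the lowest rho with Kitl. Fam20c encodes the kinase that phosphorylates secreted proteins of bone matrix. Spearman's rho of -0.5 or less was rare, with 0.063% of the genes for Cxcl12 and 0.101% for Kitl. Eef1a1 was not negative in every plate: rho with Cxcl12 was 0.19 in CD61- plate 2.

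Of the receptors and processing enzymes of CXCL12 and KIT ligand, few were measured. Kit had a count in 3 of 91 cells and the CXCL12 scavenger receptor Ackr3 in 10, and neither passed the filter on low counts, which was applied to the cells of the CD61 gates (Ackr3 had a count in 3 CD61+ and 1 CD61- cells). Adam17, a sheddase gene, had a count in 64 cells, with a rho of 0.056 with Cxcl12 and 0.0100 with Kitl. Mmp9, which encodes a protease that can release KIT ligand, had counts in 5 cells and was the 1 of 2 tested genes of this list that was higher in both CD61+ plates (20% of all genes tested were). Of 10 genes known to regulate niche factors, 7 were lower in both CD61+ plates (17.8% of all genes tested were) and 0 higher, with a median log2 ratio of -0.90, against 0.0084 for all genes tested. Among them Ebf1 had a rho of 0.55 with Cxcl12 and 0.45 with Kitl, Ebf3 0.56 and 0.55, and Foxc1 0.49 and 0.55. Of the 9 with a count in at least 25% of cells, 2 reached a rho of 0.5 with Cxcl12, Ebf1 and Ebf3 (1.44% of all genes did). With Kitl 2 did as well, Ebf3 and Foxc1 (1.11% of all genes).

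Of 23 other niche factor genes tested, 15 were lower in both CD61+ plates, against 17.8% of all genes tested, and 1 was higher, against 20%. Their median log2 ratio was -0.76. With Cxcl12, 11 of the 20 counted in at least 25% of cells had a rho of 0.5 or more (1.44% of all genes did), and likewise 11 with Kitl (1.11%). Bmp4 (0.66 with Cxcl12 and 0.65 with Kitl), Il34 (0.61 and 0.64) and Igf1 (0.61 and 0.53) were among them. Cxcl14, a chemokine gene, followed Cxcl12 more than Kitl (0.72 and 0.58), whereas Il7, needed by B cell progenitors, had 0.45 and 0.52. Differences between such pairs of values were not tested. Tnfsf11, which encodes the osteoclast factor RANKL, was the gene that was higher in both CD61+ plates, with 62.1 CPM against 46.5 CPM, and had a rho of 0.36 with Cxcl12. Of the 15 CAR markers, 11 were lower in both CD61+ plates (17.8% of all genes), with a median log2 ratio of -1.02. A rho of 0.5 or more was found for 11 with Cxcl12 (1.44% of all genes) and for 11 with Kitl (1.11%). Of 13 osteolineage markers tested, 10 were higher (20% of all genes) and 1 lower (median 1.07), and none reached a rho of 0.5 with either gene. The lists overlap: Foxc1, Ebf1 and Ebf3 are both regulators and CAR markers, and Gas6, Il7, Angpt1 and Csf1 are both niche factors and CAR markers.

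No tested marker of the other cell types reached a rho of 0.5 with Cxcl12 or Kitl among those counted in at least 25% of cells. Of 7 fibroblast markers tested, 4 were higher in both CD61+ plates and 1 was lower (median log2 ratio 3.20), against 20% and 17.8% of all genes tested. Of 6 endothelial markers 1 was higher, near the share of all genes (median 3.47), of 4 erythroid markers 2 (1.46) and of 2 chondrocyte markers 1 (1.33), with 0 lower. For the 2 hematopoietic (-5.56), 2 megakaryocyte (2.37 for Itga2b and 0.63 for Gp1bb), 3 smooth muscle and pericyte (-0.10) and 2 Schwann markers (0.28) the plates overlapped.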

How the data were processed

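The 91 cells were sequenced by Smart-seq2. Per the submitters' processing notes the authors used kallisto 0.43.0, R 3.5.1 and build mm10; the annotation was not given in the sources used here. Values per gene are the authors' expected counts, that is, estimated counts without normalisation, and 0 of them were not whole. The deposited count of genes per cell equals the genes with at least 4 counts. Index-sort intensity is linear, as deposited by the authors; 41 columns of that table were not used.

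CPM were computed from column totals. No cell was removed and no doublet caller was run. Gates follow the labels, and 3 cells with conflicting labels have none. Without named animals no test was made: sums carry exact Poisson intervals, ratios the exact binomial split, shares Clopper-Pearson intervals, all at 95%. Genes compared between gates had at least 10 counts and a count in at least 5 cells of the CD61 gates (14063 genes). A gene counted as lower when both CD61+ plates lay below both CD61- plates. Spearman's rho needed 6 cells. The 88 gated cells were clustered with log2(CPM + 1) values of 2000 variable genes without Cxcl12 and Kitl (15 components, 10 neighbours, Leiden resolution 1; scanpy 1.11.5, igraph 0.11.9, Python 3.11.15, scipy 1.17.1). Named genes were the 10 with the highest and 5 with the lowest rho for each gene among those counted in 25% of cells, without mitochondrial, ribosomal, predicted and Rik genes, plus genes of the lists. Of all listed genes those not in the table, such as Cxcr4 and Dpp4, were not analysed here. The genes and lists were chosen with earlier results of these data known. Alternatives were TMM (edgeR 4.0.16) and DESeq2 1.42.0 size factors (R 4.3.3), thinning to 1067557 counts, means or medians over cells, other limits and clusterings, and leaving out plates or cells. Steps were tested on simulated data.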

Additional observations from a re-analysis of the deposited data

Results flagged for a closer look

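Cxcl12 and Kitl were also high in the 3 cells that enter no gate comparison because their labels conflict. Cxcl12 stood at 22117, 15815 and 23699 CPM in these cells, and Kitl at 1311, 3025 and 2098 CPM in the same order, which is above a count of 3 in each. Their CD61 intensity was 483, 221 and 901, below the lowest value of 1567 in the CD61+ gate. No sample serves as a control for the level of either gene.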

How the results depend on the processing

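The Cxcl12 log2 ratio of -1.13 was -0.87 with the mean over cells of CPM and -0.90 with the median over cells. Leaving out 1 plate or 1 cell in turn gave -1.28 to -0.89 for Cxcl12, the last without CD61- plate 1, and -2.0 to -1.17 for Kitl. Without cluster 4, an alternative added after the data were seen, the ratios were -1.05 and -1.50. Within CAR-like cells only, also added later, rho of Cxcl12 with CD200 reversed to 0.27, and the rho of 0.74 between Cxcl12 and Kitl was 0.47; with cells that have counts of both it was 0.49. Spearman's rho of Cxcl12 with Adipoq, 0.61 over all cells, was 0.20 over cells with counts of both. Each alternative value was set against a spread of its result. For ratios and rho this was the SD over plate pairs or plates, and for levels by class the SD over cells. For shares it was the mean distance from the share to its 2 interval limits, and for the named genes 3.33 genes. Of the alternative values, 72 for the main results and 179 for others moved by less than this spread, 3 and 6 moved by more without a change of sign, and 1 reversed. The SD over osteolineage-like cells was wide, at 4.82 for Cxcl12 and 4.73 for Kitl in log2 units, so large shifts stayed below it. Median Kitl in these cells was 23.1 CPM in the main clustering and 0 to 0.751 CPM in the other clusterings. Median Cxcl12 was 523 CPM and then 110 to 318 CPM. In CAR-like cells the medians shifted less. Of the 10 genes most like Kitl, 5 were also among the 10 by the median rho within plates. The cause of these shifts was not tested. No paired analysis was possible because no result comes from a test and no label says that plates of equal number belong together. Depth limits what a count of 0 shows: 3 counts at the median depth are 1.46 CPM. With 4 plates and no named animal, the spread between animals is unknown.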
